A study of Mus with 12 samples.

Results

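The uterus does not only receive steroid hormones from the blood, it also converts them locally. The genes described here are 9 enzymes that do this, Hsd17b1, Hsd17b2, Hsd17b4, Hsd17b11, Hsd11b1, Hsd11b2, Srd5a1, Sult1e1 and Sts, chosen by name as rows of the deposited gene tables that carry an Ensembl transcript. Of the 87235 rows of the implantation table and the 40787 rows of the labor table, 8 rows in each belonged to these enzymes. Sts, the steroid sulfatase, was not analysed here.

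RNA was sequenced from the whole uterus of pregnant ICR mice, an outbred laboratory stock, of 8 weeks of age, with no treatment or genetic change named. Each of the 12 libraries came from 1 mouse, with 3 mice per group on embryonic day 0.5 (E0.5) or E4.5, the implantation stage, and on E15.5 or E18.5, the labor stage. The days of each stage were compared, E0.5 less E4.5 and E18.5 less E15.5, to follow uterine expression on days of differing progesterone. Values are FPKM (fragment counts scaled to transcript length and library depth), which is per length and so allows levels of different genes to be set side by side within 1 table.

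Steroid action in a tissue depends on enzymes that switch a hormone between an active and a less active form. Hydroxysteroid dehydrogenases interconvert hydroxyl and keto groups on estrogens, androgens and glucocorticoids, 5-alpha reductases saturate progesterone and testosterone, and sulfotransferases add a sulfate that keeps an estrogen from its receptor. In the pregnant uterus such enzymes set how much estradiol, progesterone and corticosterone reaches the receptors of epithelium, stroma and muscle.

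Marker genes of uterine epithelium, smooth muscle and stroma were present in all 12 libraries. Libraries of both stages stood apart from the rest of their group. The 6 ovary markers summed to 822 FPKM in E4.5 replicate 3 and to 3.87 to 6.02 FPKM in the other 5 libraries of the stage. The row of the oviduct marker Ovgp1, which also holds Wdr77 and Gm42890, was at 69.6 FPKM there against 3.54 to 12.1 FPKM. Uterine markers were at their lowest in that library, with sums of 184 FPKM for smooth muscle against 626 to 1051 FPKM elsewhere, 58.6 FPKM for stroma against 127 to 205 FPKM, and 72.8 FPKM for epithelium against 100.1 FPKM or more. In E15.5 replicate 1 the decidual prolactin gene Prl8a2 was at 1342 FPKM, against 40.2 to 86.0 FPKM in the other labor libraries. It made up nearly all of the sum of the 5 decidua markers there (1345 FPKM), and of the other members Prl3c1 was highest in that library, at 0.440 FPKM, Alpl was at its lowest of the stage, and Wnt4 and Bmp2 lay within the range of the other libraries. In E15.5 replicate 3 the 6 yolk sac and fetal liver markers summed to 999 FPKM, against 12.9 and 161 FPKM in the other libraries of its day and 206 to 674 FPKM at E18.5, and the fat markers to 6.42 FPKM against 30.4 to 71.8 FPKM. Values at the implantation stage are therefore given with and without E4.5 replicate 3, and values at the labor stage without E15.5 replicate 1 or 3 where either changed a call or a direction or moved a value widely, and for Sult1e1 and Srd5a1. The libraries of the implantation stage held 58020989 to 70906881 counts each, and the depth of the labor stage, deposited as FPKM alone, is unknown.

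**Figure D1:**
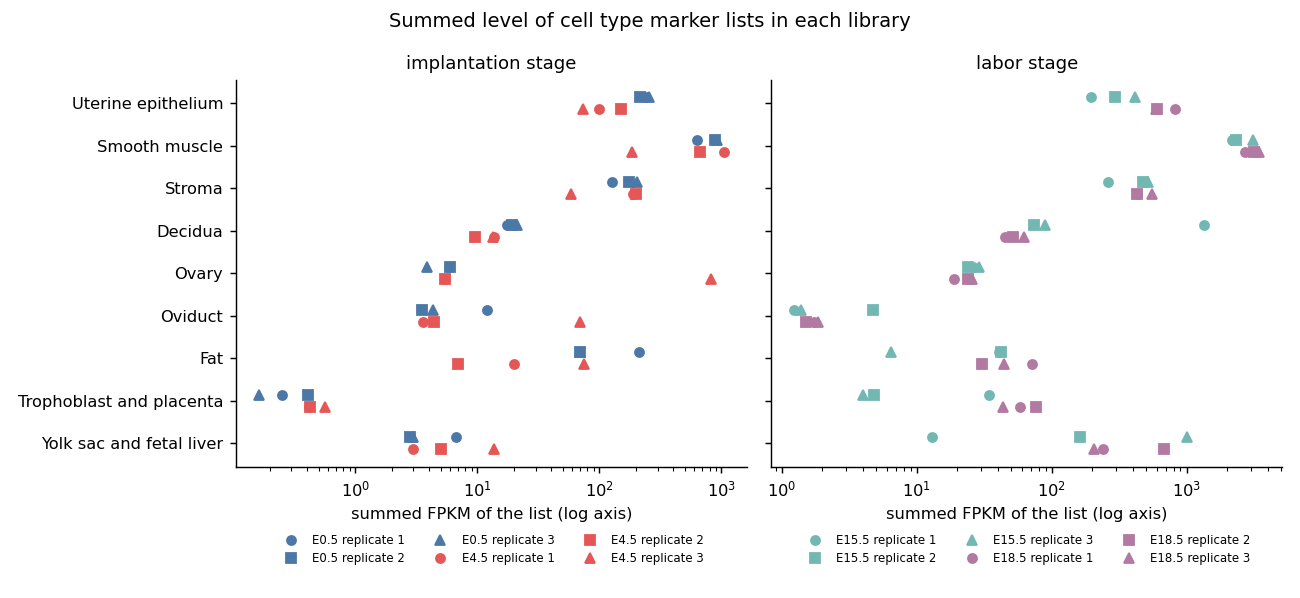
Summed FPKM of 9 cell type marker lists in each library, on a log axis, with the implantation stage at left and the labor stage at right and 1 symbol per library. E4.5 replicate 3 lies far to the right for ovary (822 FPKM) and E15.5 replicate 1 for decidua (1345 FPKM, nearly all of it Prl8a2), and the epithelial sum is higher at E18.5 (593 to 819 FPKM) than at E15.5 (197 to 412 FPKM).

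At the implantation stage 3 of the enzymes were higher at E4.5 than at E0.5, namely Srd5a1, Hsd11b2 and Hsd11b1, and 1 was lower, Hsd17b2. These 4 of the 7 enzymes tested passed the criterion of the study, which asks for a log2 fold change of 1 or more in either direction and an unadjusted p under 0.05, here from edgeR's quasi-likelihood test. Of all 59732 tested rows 12.2% passed it, 6.37% higher at E0.5 and 5.82% lower. Only Srd5a1 also had a Benjamini-Hochberg adjusted p under 0.05 in edgeR, as 1.22% of the rows did. Without E4.5 replicate 3 the same test gave 4 enzymes by the criterion and 4 by the adjusted p, against 14.1% and 6.08% of the rows. The groups did not overlap in FPKM for 5 of the 7 enzymes, and did not for 25.2% of all tested rows. The median log2 fold change, E0.5 minus E4.5, was -1.17 over the 7 enzymes and -0.01 over all tested rows, and over the 7 enzymes it was -0.0061 without E4.5 replicate 3. In whole uterus a lower value can stem from fewer cells of a type or from less RNA per cell, and these cannot be told apart.

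**Figure D2:**
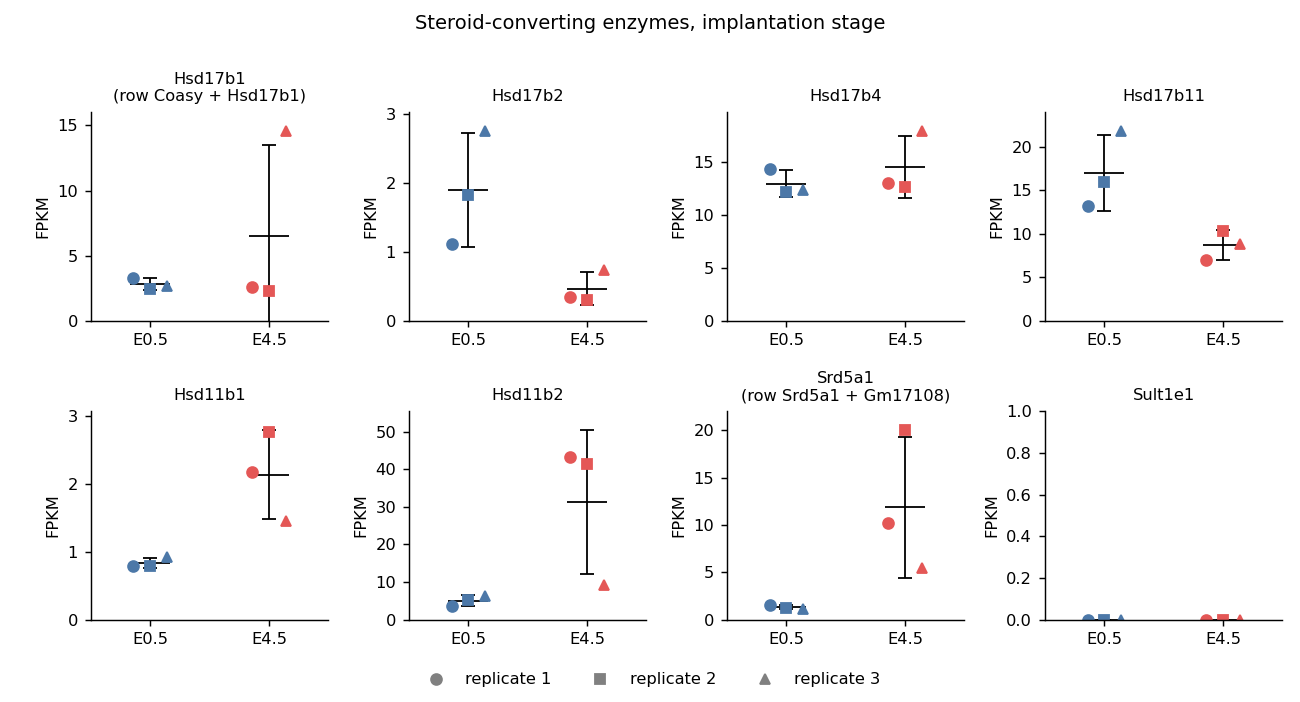
FPKM of 8 steroid-converting enzymes at E0.5 and E4.5, each panel on its own linear axis from 0, with 1 symbol per mouse and black bars for the mean ± SD (n = 3), which for the row of Coasy and Hsd17b1 reach below the axis. Hsd11b2 and Srd5a1 are higher in every E4.5 library than in any E0.5 library, with E4.5 replicate 3 lowest of its group at 9.27 and 5.42 FPKM, and Sult1e1 is at 0 in all 6.

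Srd5a1 encodes steroid 5-alpha reductase type 1, which reduces progesterone and testosterone. It lies on the minus strand of chr13:69573449-69614901 (GRCm38), in a row that also holds the predicted gene Gm17108, so reads of the latter are counted with it. It was at 1.55, 1.28 and 1.13 FPKM at E0.5 and at 10.2, 20.003 and 5.42 FPKM at E4.5. All 3 libraries of E4.5 lay above all 3 of E0.5, and the spread was wider on the later day. The log2 fold change was -3.16 ± 0.48 (SE), 8.91-fold higher at E4.5, with an adjusted p of 0.0409 in edgeR (Benjamini-Hochberg). Without E4.5 replicate 3 it was -3.52, for which edgeR gave an adjusted p of 0.00196. With any other single library left out the criterion was still passed, but the adjusted p was above 0.05 and reached 0.193 in edgeR.

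Hsd11b1 and Hsd11b2 act in opposite directions on glucocorticoid, the first mainly regenerating active corticosterone and the second inactivating it. Both were higher at E4.5. Hsd11b2 (chr8:105518755-105523988, plus strand) was at 3.63, 5.27 and 6.38 FPKM at E0.5 and at 43.3, 41.3 and 9.27 FPKM at E4.5. The lowest value of E4.5 was that of replicate 3, the library with the ovary markers and the lowest stroma sum, and it still lay above all E0.5 libraries. The log2 fold change was -2.63 ± 0.60 (SE), 6.17-fold higher at E4.5, with an adjusted p of 0.0952 in edgeR. Without that library it was -3.07 with an adjusted p of 0.00213. With any other single library left out the adjusted p was 0.196 to 0.292 in edgeR.

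Hsd11b1 (chr1:193221634-193243561, minus strand) was at 0.790, 0.799 and 0.922 FPKM at E0.5 and at 2.18, 2.77 and 1.46 FPKM at E4.5. Its groups did not overlap either, at a level under that of Hsd11b2 in every library. The log2 fold change was -1.34 ± 0.29 (SE), 2.53-fold higher at E4.5, with an adjusted p of 0.0856 in edgeR. It was -1.57 with an adjusted p of 0.0109 without E4.5 replicate 3. With any other single library left out the adjusted p was 0.193 to 0.274 in edgeR.

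Hsd17b2 encodes the 17-beta hydroxysteroid dehydrogenase that oxidises estradiol to estrone. It lies on the plus strand of chr8:117701904-117759027. It was at 1.11, 1.83 and 2.76 FPKM at E0.5 and at 0.347, 0.308 and 0.738 FPKM at E4.5. Every E0.5 library was above every E4.5 library. The log2 fold change was 2.05 ± 0.50 (SE), 4.15-fold higher at E0.5, with an adjusted p of 0.109 in edgeR. It was 2.52 with an adjusted p of 0.0296 without E4.5 replicate 3. With any other single library left out the adjusted p was 0.185 to 0.299 in edgeR. The summed FPKM of the 6 epithelium markers was also higher at E0.5 (217 to 255) than at E4.5 (at least 72.8 and no more than 150.6), and its part in the lower Hsd17b2 at E4.5 was not tested.

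Hsd17b11, a 17-beta dehydrogenase of lipid droplets that acts on androgen metabolites, was at 13.2, 16.0 and 21.9 FPKM at E0.5 and at 6.98, 10.3 and 8.85 FPKM at E4.5 (chr5:103989724-104023840, minus strand). The groups did not overlap, and the log2 fold change of 0.98 ± 0.24 (SE) lay just under the minimum of the criterion, with an adjusted p of 0.109 in edgeR. It passed the criterion with E0.5 replicate 1 left out (1.15), with E0.5 replicate 2 left out (1.02) and with E4.5 replicate 2 left out (1.11), and not without E4.5 replicate 3 (0.97). The 4 fat markers summed to 210, 69.5 and 70.0 FPKM at E0.5 and to 20.1, 6.89 and 74.6 FPKM at E4.5, overlapping through E4.5 replicate 3, and the epithelium sum was higher at E0.5 without overlap. The part of either in the values of Hsd17b11 was not tested.

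Hsd17b4, a peroxisomal enzyme that oxidises estradiol and takes part in fatty acid beta-oxidation, was among the most abundant of the enzymes. It was at 14.4, 12.1 and 12.4 FPKM at E0.5 and at 13.0, 12.7 and 18.0 FPKM at E4.5. The groups overlapped, and the log2 fold change was -0.15 with a 95% interval of -0.58 to 0.28 and an adjusted p of 0.707 in edgeR. It was -0.0061 without E4.5 replicate 3.

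Hsd17b1, which reduces estrone to estradiol, could not be measured by itself at this stage. Its row also holds the neighbouring gene Coasy of coenzyme A synthesis (chr11:101078384-101086619, plus strand) and was at 3.32, 2.40 and 2.68 FPKM at E0.5 and at 2.58, 2.25 and 14.6 FPKM at E4.5. The high value is that of E4.5 replicate 3. The log2 fold change of the joint row was -1.17 ± 0.70 (SE) with an adjusted p of 0.431 in edgeR, turned to 0.19 without that library, and passed the criterion at -1.58 without E4.5 replicate 2.

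Sult1e1, the estrogen sulfotransferase (chr5:87575969-87591594, minus strand), had no count in any of the 6 libraries of the implantation stage. Its row was not tested. A count of 0 allows up to 3 counts, which is 0.0423 to 0.0517 CPM (counts scaled to library depth) in these libraries, and this limit covers counting error only.

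At the labor stage the 2 enzymes that passed the criterion were both higher at E18.5, Sult1e1 and Srd5a1. The other 6 of the 8 tested did not pass it, and of all 30928 tested rows 6.05% passed, 3.11% higher at E18.5 and 2.93% lower. None of the 8 had a Benjamini-Hochberg adjusted p under 0.05 in limma, as 0.0259% of the rows did, while 4 had an unadjusted p under 0.05, as did 12.2% of the rows. The groups did not overlap for 5 of the 8 enzymes, against 19.9% of all tested rows. The median log2 fold change, E18.5 minus E15.5, was 0.30 over the 8 enzymes and 0.02 over all tested rows. With 3 against 3 libraries an exact permutation test of 1 gene cannot go below p = 0.1, so the tests rest on the spread shared across rows.

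**Figure D3:**
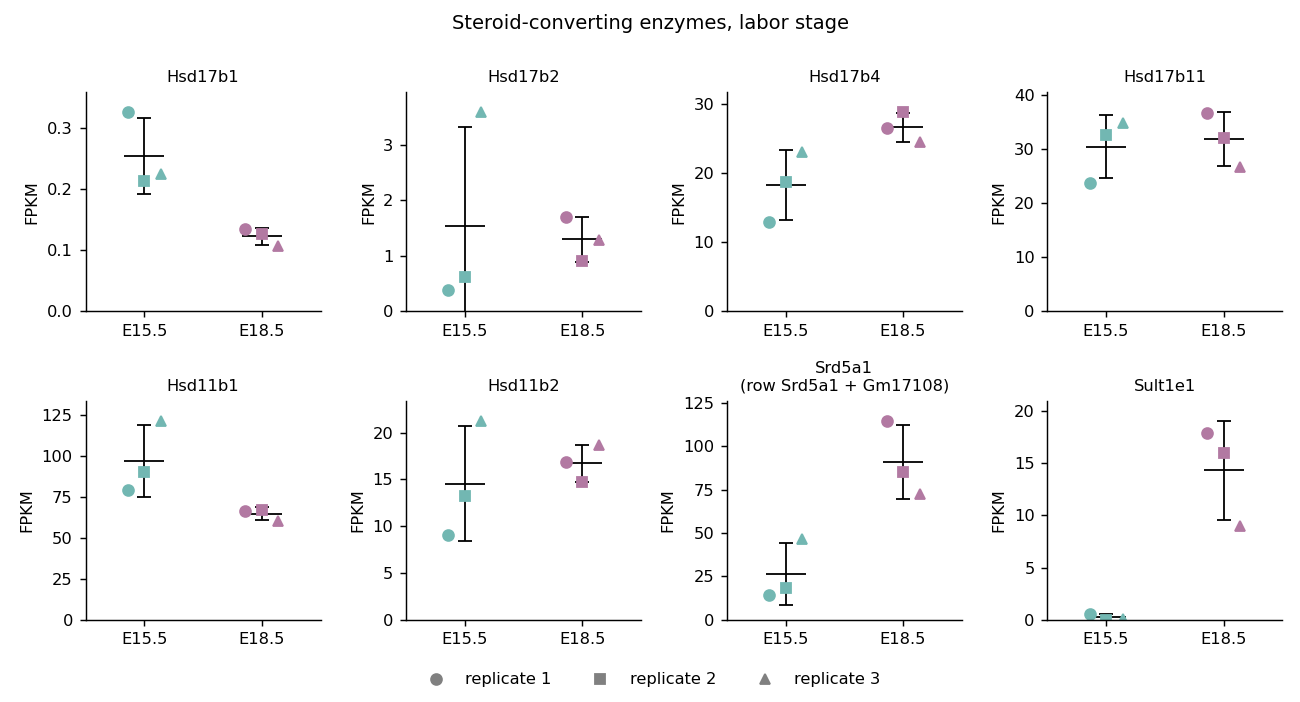
FPKM of 8 steroid-converting enzymes at E15.5 and E18.5, each panel on its own linear axis from 0, with 1 symbol per mouse and black bars for the mean ± SD (n = 3), which for Hsd17b2 and Sult1e1 at E15.5 reach below the axis. Sult1e1 is near 0 at E15.5 and at 8.98 to 17.9 FPKM at E18.5, and Srd5a1 is higher in every E18.5 library than in any E15.5 library.

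Sult1e1 transfers sulfate to estrone and estradiol, and the sulfated forms do not bind the estrogen receptor. Its level was 0.567, 0 and 0.0983 FPKM at E15.5 and 17.9, 16.0 and 8.98 FPKM at E18.5. It was listed at 0 in E15.5 replicate 2 and below 1 FPKM in the other libraries of that day, far under all 3 libraries of E18.5. On the log2(FPKM + 0.1) scale the change was 5.87 ± 0.67 (SE), a ratio of 58.4 on that scale, with an adjusted p of 0.0638 in limma (Benjamini-Hochberg). The size depends on the pseudocount. It was 3.62 with a pseudocount of 1 (adjusted p of 0.0393 in limma) and 7.33 with 0.01 (adjusted p of 0.172 in limma). Without E15.5 replicate 1, the library with the high Prl8a2 and the highest Sult1e1 value of its day, the change rose to 6.62 and limma gave an adjusted p of 0.0181. Leaving out E15.5 replicate 3 instead gave 5.74 and an adjusted p of 0.102 in limma. Without any other 1 library the adjusted p was 0.0916 to 0.279 in limma.

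Srd5a1, again in a row with Gm17108, was at 14.2, 18.502 and 46.8 FPKM at E15.5 and at 114, 85.5 and 72.7 FPKM at E18.5. The groups did not overlap, with E15.5 replicate 3 nearest to the later day. The log2 change was 1.95 ± 0.44 (SE), 3.85-fold higher at E18.5, with an adjusted p of 0.173 in limma. With each library left out in turn it ran from 1.60 (without E15.5 replicate 1) to 2.45 (without E15.5 replicate 3) and passed the criterion each time, with adjusted p-values of 0.309 and 0.0849 in limma for these. In the E18.5 libraries Srd5a1 was the most abundant of the enzymes per length, above Hsd11b1, and in all 3 libraries of E15.5 it was below Hsd11b1.

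The summed FPKM of the 6 epithelium markers was higher at E18.5 (593 to 819) than at E15.5 (197 to 412), without overlap, and Foxa2 of the glands was under 1 FPKM in all 6 libraries. The 6 trophoblast and placenta markers with a row summed to 43.9 to 76.1 FPKM at E18.5 and to 4.04 to 34.5 FPKM at E15.5, again without overlap. Most of the E18.5 sum was the row of Tpbpa, at 31.9 to 52.7 FPKM against 1.41 to 6.20 FPKM at E15.5. Prl3b1, at 5.14, 1.59 and 1.14 FPKM at E15.5 and 0.734 to 2.93 FPKM at E18.5, and Prl2c2, at 22.5, 0.830 and 0.790 FPKM at E15.5 and 6.56 to 18.2 FPKM at E18.5, overlapped between the days and were highest in E15.5 replicate 1. The yolk sac and fetal liver sum overlapped between the days, and was highest in E15.5 replicate 3, the library whose Srd5a1 was nearest to E18.5. The part of any of these in the rise of Sult1e1 and Srd5a1 was not tested.

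Hsd11b1 was abundant at the labor stage, at 79.2, 90.2 and 121 FPKM at E15.5 and at 66.6, 67.3 and 60.3 FPKM at E18.5. All E18.5 libraries were below all E15.5 libraries. The log2 change of -0.56 ± 0.19 (SE) was under the minimum of the criterion, with an adjusted p of 0.307 in limma. The decidua marker sum was also lower at E18.5 (45.3 to 62.6 FPKM) than at E15.5 (74.6 to 1345 FPKM), without overlap and mostly through Prl8a2. Its member Wnt4 went the other way without overlap, at 0.683 to 1.01 FPKM at E15.5 and 1.75 to 2.52 FPKM at E18.5. Prl3c1, Alpl and Bmp2 overlapped between the days. E15.5 replicate 1, with the highest decidua sum, had the lowest Hsd11b1 of its day. The part of the decidua sum in the lower Hsd11b1 was not tested. Its counterpart Hsd11b2 was at 9.10, 13.3 and 21.2 FPKM at E15.5 and at 16.9, 14.7 and 18.6 FPKM at E18.5. These groups overlapped, and the log2 change was 0.28 with a 95% interval of -0.42 to 0.98 and an adjusted p of 0.727 in limma. It was -0.011 without E15.5 replicate 1 and 0.60 without E15.5 replicate 3.

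Hsd17b4 was at 13.0, 18.7 and 23.1 FPKM at E15.5 and at 26.6, 28.8 and 24.6 FPKM at E18.5. The groups did not overlap, but the log2 change of 0.58 ± 0.22 (SE) was under the minimum of the criterion, with an adjusted p of 0.359 in limma. It was 0.35 without E15.5 replicate 1 and 0.77 without E15.5 replicate 3. Hsd17b11 was at 23.8, 32.6 and 34.9 FPKM at E15.5 and at 36.7, 32.1 and 26.7 FPKM at E18.5. Its groups overlapped, and the log2 change was 0.07 with a 95% interval of -0.39 to 0.53, and -0.10 without E15.5 replicate 1.

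Hsd17b2 was at 0.384, 0.618 and 3.59 FPKM at E15.5 and at 1.70, 0.898 and 1.29 FPKM at E18.5. The E15.5 libraries spanned all of the E18.5 values, and the log2 change was 0.32 ± 0.73 (SE) with an adjusted p of 0.884 in limma. It was -0.26 without E15.5 replicate 1, and 1.20 without E15.5 replicate 3, where it passed the criterion with an adjusted p of 0.253 in limma.

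Hsd17b1 had a row of its own in the labor table and was the lowest of the enzymes there at E18.5. Its level was 0.325, 0.212 and 0.224 FPKM at E15.5 and 0.134, 0.126 and 0.106 FPKM at E18.5. The groups did not overlap at this low level, and the log2 change on the log2(FPKM + 0.1) scale, which understates changes of such low values, was -0.66 ± 0.31 (SE) with an adjusted p of 0.454 in limma. Coasy, counted apart from it here, was at 3.76 ± 0.343 FPKM at E15.5 and 3.81 ± 0.258 FPKM at E18.5 (SD, n = 3).

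**Figure D4:**
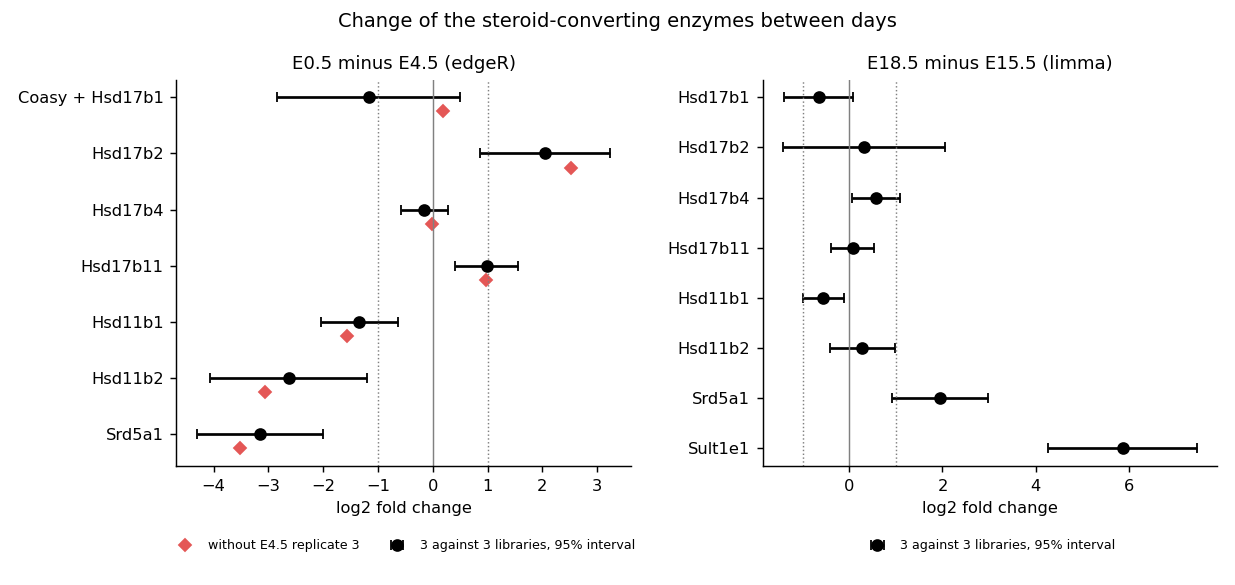
Log2 fold changes of the enzymes with their 95% intervals, E0.5 minus E4.5 from edgeR at left (7 rows) and E18.5 minus E15.5 from limma at right (8 rows), with dotted lines at the minimum of the criterion. Red diamonds leave out E4.5 replicate 3, which moves the row of Coasy and Hsd17b1 from -1.17 to 0.19 and Srd5a1 from -3.16 to -3.52.

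Whether the effect of the day differed between the stages was tested for the 6 enzymes measured by comparable rows in both tables, as E0.5 minus E4.5 less E18.5 minus E15.5. With this coding, which sets E0.5 beside E18.5, Srd5a1 differed by -4.84 ± 0.68 (SE) with an adjusted p of 0.00664 in limma, where 11.9% of 22056 row pairs passed the criterion and 2.64% the adjusted p. The adjusted p was under 0.05 with each of the 12 libraries left out. Hsd11b2 differed by -2.62 ± 0.73 (SE) with an adjusted p of 0.0842 in limma, and by -3.35 with an adjusted p of 0.00249 without E4.5 replicate 3. The other 4 did not pass the criterion, with adjusted p-values in limma of 0.430 for Hsd17b2, 0.182 for Hsd17b11, 0.224 for Hsd17b4 and 0.301 for Hsd11b1.

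Since Srd5a1 was higher on the later day in both stages, the contrast was also computed with the days in time order, as E4.5 minus E0.5 less E18.5 minus E15.5, an alternative chosen after the data had been seen. In that order the difference for Srd5a1 was 0.95 with a 95% interval of -0.54 to 2.44 and an adjusted p of 0.442 in limma. With 1 library left out it ran from 0.44 to 1.41. It passed the criterion without E4.5 replicate 3 (1.41) and failed it in the other 11 of 12 fits. Hsd11b1, which was higher on the later day at implantation and not at labor, differed by 1.77 ± 0.31 (SE) with an adjusted p of 0.00881 in limma, where 16.6% of the row pairs passed the criterion and 7.61% the adjusted p. Its adjusted p was under 0.05 with each of the 12 libraries left out. Hsd11b2 differed by 2.06 ± 0.73 (SE) with an adjusted p of 0.115 in limma, and by 2.79 with an adjusted p of 0.00343 without E4.5 replicate 3. Hsd17b2, at -2.14 with an adjusted p of 0.190 in limma, and Hsd17b11, at -1.01 with an adjusted p of 0.0840, passed the criterion alone. With 1 library left out Hsd17b2 failed the criterion in 8 of 12 fits, and its adjusted p was 0.0178 in limma without E15.5 replicate 3. With a pseudocount of 1 it was -1.02 and failed the criterion. Hsd17b11 failed it in 4 of 12 fits, without E0.5 replicate 3 (-0.82), E4.5 replicate 1 (-0.86), E15.5 replicate 1 (-0.85) or E18.5 replicate 1 (-0.91), and with a pseudocount of 1 (-0.95).

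A ratio of Hsd11b1 to Hsd11b2 within a library cancels the scaling of the library, apart from the 0.1 FPKM added to each value. Its log2 value was -2.07, -2.58 and -2.66 at E0.5 and -4.25, -3.85 and -2.59 at E4.5. Hsd11b2 was thus the higher of the pair in all 6 libraries, and E4.5 replicate 3 fell among the E0.5 values. In the labor libraries the ratio was 3.11, 2.76 and 2.51 at E15.5 and 1.98, 2.19 and 1.69 at E18.5. Hsd11b1 was the higher of the pair in all 6 libraries of that stage, and the ratio was lower in every E18.5 library than in any E15.5 library. The means were -2.44 ± 0.32 at E0.5, -3.56 ± 0.87 at E4.5, 2.79 ± 0.30 at E15.5 and 1.95 ± 0.25 at E18.5 (SD, n = 3), and no test was made across the tables, which come from separate assemblies.

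**Figure D5:**
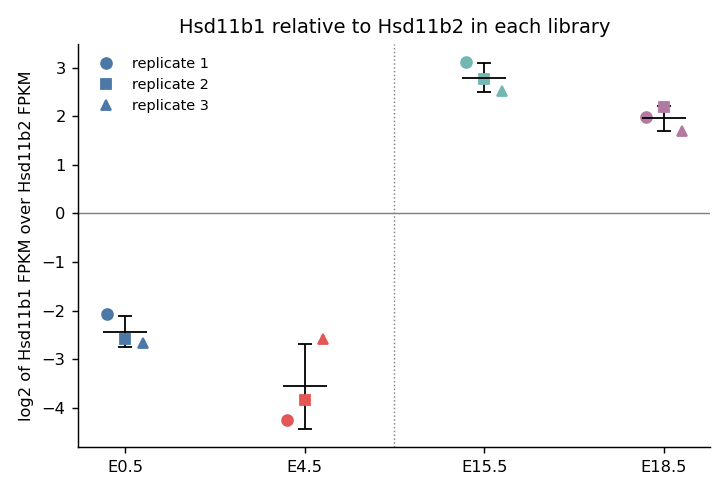
Log2 of Hsd11b1 FPKM over Hsd11b2 FPKM in each of the 12 libraries (each value + 0.1), with 1 symbol per mouse and black bars for the mean ± SD (n = 3). The dotted line parts the 2 separately assembled tables, with all 6 implantation libraries below 0 and all 6 labor libraries above it.

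For estradiol the corresponding pair is Hsd17b1, which forms it, and Hsd17b2, which removes it. In the labor table the log2 ratio of Hsd17b1 to Hsd17b2, with 0.1 FPKM added to each value, was -0.19, -1.20 and -3.51 at E15.5 and -2.95, -2.14 and -2.75 at E18.5. Hsd17b2 was the higher of the pair in all 6 libraries, and the days overlapped because the ratio of E15.5 replicate 3 was the lowest of all. Hsd17b1 was near the added 0.1 FPKM, so the ratio depends on it, and the mean difference E18.5 minus E15.5 was -0.98, or -0.22 with 1 FPKM added and -1.37 with 0.01. It was -0.26 without E15.5 replicate 1 and -1.92 without E15.5 replicate 3. This pair could not be formed at the implantation stage, where Hsd17b1 shared its row, and the pair of Sts and Sult1e1 could not be formed at either.

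A list of 24 further steroid-converting enzymes was counted in the same fits. At the implantation stage 12 were tested, 4 of them passed the criterion with lower values at E0.5, and 0 with higher values, where 5.82% of all rows passed lower and 6.37% higher. Hsd17b7, at 1.10 to 1.95 FPKM in 5 libraries, and Hsd3b1, at 0.0368 to 0.0541 FPKM in those libraries, passed through E4.5 replicate 3, where they were at 165 and 519 FPKM. Their log2 fold changes without that library were 0.01 and -0.19. Both are enzymes of steroid synthesis with high expression in the ovary.

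Cyp1b1, a cytochrome that hydroxylates estradiol, was at 1.14, 0.388 and 0.407 FPKM at E0.5 and at 12.9, 7.91 and 36.2 FPKM at E4.5. Its groups did not overlap, and its log2 fold change was -4.86 ± 0.75 (SE) with an adjusted p of 0.0425 in edgeR, and -4.05 with an adjusted p of 0.00853 without E4.5 replicate 3. With any other single library left out its adjusted p was 0.0615 to 0.194 in edgeR. Sult1a1, a phenol sulfotransferase that also takes estrogens, was at 4.57, 2.87 and 3.02 FPKM at E0.5 and at 9.95, 8.61 and 5.94 FPKM at E4.5. It was higher in every E4.5 library, with a log2 fold change of -1.23 ± 0.30 (SE) and an adjusted p of 0.109 in edgeR, or 0.0218 without E4.5 replicate 3 and 0.189 to 0.310 without any other 1 library.

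Without that library 4 of the 12 again passed, against 14.1% of all rows. They were Cyp1b1 and Sult1a1 lower at E0.5 and Akr1c14 and Akr1c18 higher, at log2 fold changes of 1.23 and 4.65 and adjusted p-values of 0.0884 and 0.0772 in edgeR. Akr1c18, the 20-alpha hydroxysteroid dehydrogenase that inactivates progesterone, was at 4.13, 1.52 and 4.21 FPKM at E0.5 and at 0, 0.248 and 399 FPKM at E4.5, so that E4.5 replicate 3 was far above and the other 2 libraries below E0.5. The row of Akr1c14 also held Gm18857 at this stage. The Akr1c genes are close paralogs, and reads could be split among them.

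Of the 24, 13 were tested at the labor stage, 2 passed the criterion with higher values at E18.5 and 0 with lower values, where 3.11% of all rows passed higher and 2.93% lower. Akr1c14, the 3-alpha hydroxysteroid dehydrogenase that acts on the products of 5-alpha reduction, was at 18.9, 19.2 and 25.8 FPKM at E15.5 and at 112, 55.1 and 37.3 FPKM at E18.5. It did not overlap between the days, with a log2 change of 1.54 ± 0.38 (SE) and an adjusted p of 0.201 in limma. Hsd3b1, which forms progesterone from pregnenolone, was at 0.0576, 0.0867 and 1.46 FPKM at E15.5 and at 21.6, 40.9 and 1.99 FPKM at E18.5. The nearest libraries of the days differed little, and the log2 change was 5.10 ± 1.29 (SE) with an adjusted p of 0.205 in limma. Its size depends on single libraries, from 4.23 when E18.5 replicate 2 was left out to 6.38 when E18.5 replicate 3 was, and on the pseudocount, at 3.32 with 1 FPKM. Akr1c18, named after its values had been seen, was at 323, 415 and 635 FPKM at E15.5 and at 843, 721 and 665 FPKM at E18.5, with a log2 change of 0.75 ± 0.32 (SE) and an adjusted p of 0.418 in limma.

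The 10 cofactor, activation and transport partners of these enzymes gave 1 call by the criterion at implantation, near the 12.2% of all rows. At labor they gave 0 in limma, also at an unadjusted p under 0.05. Abcg2, an exporter of estrogen sulfates, was at 2.05, 2.19 and 2.14 FPKM at E0.5 and at 6.40, 5.95 and 3.45 FPKM at E4.5, without overlap, with a log2 fold change of -1.31 ± 0.27 (SE) and an adjusted p of 0.0775 in edgeR. With any 1 library other than E4.5 replicate 3 left out its adjusted p was 0.177 to 0.247 in edgeR. Without E4.5 replicate 3 the change of Abcg2 was -1.55, with an adjusted p of 0.00313, and H6pd was called as well at -1.51. That made 2 of the 10 partners by the criterion and 2 by the adjusted p in edgeR, against 14.1% and 6.08% of the rows, and 6 had an unadjusted p under 0.05, against 20.9%. H6pd supplies the NADPH that Hsd11b1 uses, and was at 9.25, 9.81 and 10.4 FPKM at E0.5 and at 25.1, 30.2 and 7.33 FPKM at E4.5, where replicate 3 fell below the E0.5 libraries. In the labor libraries it was at 15.8 to 35.5 FPKM, and its log2 change was 0.19 ± 0.30 (SE).

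Of the 7 receptors of the converted steroids 1 passed the criterion at the implantation stage, Esr2, whose row also holds Gm7862. It was at 13.1 FPKM in E4.5 replicate 3 and at most 0.0253 FPKM elsewhere. Without that library 0 passed, and edgeR gave 1 an unadjusted p under 0.05, as it did 20.9% of all rows. The count with all libraries, too, is near the 12.2% of all rows. Of the 6 tested at labor 0 passed the criterion or the adjusted p in limma, and 0 had an unadjusted p under 0.05.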

How the data were processed

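RNA-seq was made by the authors from the whole uteri of 12 mice. The labels give poly(A) selection and a NovaSeq instrument, the study's methods rRNA removal and a HiSeq instrument, and the protocol text of the labels speaks of adipose RNA although the tissue is labelled uterus. Per those methods reads were trimmed with Cutadapt, mapped with Bowtie2 and Tophat2, and the transcriptomes merged and their levels estimated with StringTie and Ballgown. The submitters' processing notes list Bowtie 0.12.2, HISAT2 2.0 and StringTie 1.3.0. The FPKM values were deposited by the authors as 1 table per stage, and the whole-number counts only for the implantation stage. How reads were assigned to genes, and whether by strand, is not given in the sources used here, and overlapping or merged genes cannot be parted. The notes name mm8 and mm10 without a role, and 19274 of 19279 protein-coding rows overlap the RefSeq gene of their name in GRCm38, so coordinates are given in that build. A value of 0.0001, which stands for 0 in the implantation FPKM, was set back to 0. Nameless rows took 1.02% to 1.86% of all counts.

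The enzymes and gene lists were chosen with earlier results of these data known. Tests took rows whose 6 libraries averaged 0.1 FPKM or more, with edgeR 4.0.16 (TMM, quasi-likelihood) on counts at implantation and with limma 3.58.1 (trend) on log2(FPKM + 0.1) at labor, in R 4.3.3, and were adjusted by Benjamini-Hochberg over all rows. Differences between stages were fitted with limma over 22056 row pairs that share an Ensembl transcript. All 9 enzymes are named, and genes of the further lists where they passed the criterion with a mean of at least 1 FPKM. Further genes named outside this rule (Akr1c18, H6pd, Esr1, Nr3c1, Pgr) were chosen after their values were seen. Alternatives were DESeq2 1.42.0, limma on FPKM, other size factors, filters, pseudocounts of 1 and 0.01, quantile normalization, leaving out each library, and a replicate block. The tests were checked on simulated data. No sequence of the enzymes was used here. The counts of 58020989 to 70906881 per library set the precision at implantation, and 3 mice per group set it at both stages. Scripts used Python 3.11.15 with pandas 2.3.3.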

Additional observations from a re-analysis of the deposited data

Results flagged for a closer look

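The effect of the day on Srd5a1 differed between the stages by the test of the difference itself, at -4.84 on the log2 scale for E0.5 minus E4.5 less E18.5 minus E15.5. This contrast sets the earlier day of the first stage beside the later day of the second, and in both stages Srd5a1 was higher on the later day. With the days in time order the difference was 0.95 with an adjusted p of 0.442 in limma. For Hsd11b1 the difference in time order was 1.77, with higher values on the later day in 3 of 3 libraries at implantation and lower values on the later day in 3 of 3 libraries at labor.

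Further rows named for these enzymes hold no Ensembl transcript and were not counted as rows of the enzymes. They are given because they lie above 0. Those averaging 0.1 FPKM or more were part of the fits over all rows, and their own test results are not given. At the implantation stage the highest was 5.07 FPKM among 4 such rows of Hsd17b2, 4.40 FPKM among 3 rows of Hsd17b11 and 1.86 FPKM in 1 row of Hsd17b4. The Hsd17b2 row with the highest value was on the plus strand, as is the gene, and 3 had no strand. Of the Hsd17b11 rows 2 were on the plus strand, opposite to the gene, one with 2.67, 3.68 and 3.12 FPKM in the E0.5 libraries against 1.71, 1.73 and 1.39 FPKM in those of E4.5, without overlap, and one with 3.30, 3.60 and 4.40 FPKM against 2.79, 4.10 and 2.01 FPKM, with overlap. A row named for Srd5a1 was also on the plus strand, opposite to its gene, and was at 0.298, 0.319 and 0.462 FPKM at E0.5 and at 2.35, 4.10 and 1.12 FPKM at E4.5. It was higher in every E4.5 library than in any E0.5 library. Its order of libraries was that of the gene at E4.5 and the reverse of it at E0.5. Whether reads were assigned by strand is not given in the sources used here. At the labor stage 1 such row of Srd5a1 was at 2.47 FPKM in E18.5 replicate 2 and listed at 0 in the other libraries.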

How the results depend on the processing

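At the implantation stage the rows passing the criterion numbered 7284, or 4396 with a mean of at least 1 FPKM, and 730 had an adjusted p under 0.05. That count was 5885 with DESeq2, 1126 with a mean of at least 1 FPKM and 0 to 3629 with 1 library left out, the highest without E4.5 replicate 3. Of the enzymes 4 passed the criterion and 1 the adjusted p, against 5 with DESeq2 and 0 to 4 with 1 library left out. At labor 1870 rows passed the criterion, 514 with a pseudocount of 1 and 799 with at least 1 FPKM, and 8 passed the adjusted p, 4 with a pseudocount of 1, 4 without a filter, 3 with at least 1 FPKM and 0 to 28 with 1 library left out. Of the enzymes 2 passed the criterion and 0 the adjusted p, the latter 1 with a pseudocount of 1 and 0 to 1 with 1 library left out. The difference between stages gave 2627 row pairs by the criterion, 1179 with a pseudocount of 1 and 1315 with at least 1 FPKM, and 583 by the adjusted p, 193 to 1271 with 1 library left out. Of the enzymes 2 passed the criterion there and 1 the adjusted p, 2 to 4 and 1 to 2 with 1 library left out. With the replicate number as a block the adjusted p counts were 0 rows and 0 enzymes at implantation, 2 rows and 0 enzymes at labor and 71 row pairs and 0 enzymes for the difference (Srd5a1 at an adjusted p of 0.0521 in limma), and Hsd11b1 in time order was at 0.0490. No source pairs the mice, and libraries of the same number deviated from their group means with correlations of -0.063 to 0.018, so the number was taken as a name only. Directions turned with 1 library left out for the row of Coasy and Hsd17b1 (-1.58 to 0.19) and Hsd17b7 (-5.80 to 0.0051) at implantation and for Hsd17b2 (-0.26 to 1.20), Hsd17b11 (-0.10 to 0.19) and Hsd11b2 (-0.011 to 0.60) at labor. The cause of these shifts was not tested. For single genes 399 values under an alternative had the direction and call of the main fit, 34 lost the call, 10 gained it and 6 turned. The day difference of the log2 ratio of Hsd11b1 to Hsd11b2, 1.13 at implantation and -0.84 at labor, was 0.78 to 1.61 and -0.98 to -0.68 with 1 library left out, and that of Hsd17b1 to Hsd17b2 at labor, -0.98, was -1.92 to -0.26, and -0.22 with a pseudocount of 1.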

Other observations

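Over the 6 libraries of a stage, the rows with 1 gene name and a mean of at least 1 FPKM were ranked by Pearson's r of log2(FPKM + 0.1) with each enzyme that passed the criterion, and the 2 closest are given as a description, since the points share libraries, depth and day. Among 14609 rows of the implantation stage the closest to Srd5a1 were Ccp110 (r = 0.998) and Igf1 (r = 0.995), the gene of insulin-like growth factor 1. Hsd11b2 was closest to Col4a5 (r = 0.999), a type IV collagen chain of basement membranes, and to Sumf2 (r = 0.997), a member of the list of partner genes. Hsd11b1 was closest to Gm42929 (r = 0.999) and Arfgap3 (r = 0.995), and Hsd17b2 to 4632404H12Rik (r = 0.998) and Gm22781 (r = 0.995). Among 13299 rows of the labor stage Srd5a1 was closest to Igfbp2 (r = 0.998), an insulin-like growth factor binding protein, and Dclk3 (r = 0.997), and Sult1e1 to Taf8 (r = 0.997) and C1s1 (r = 0.990), a complement protease.

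The estrogen, progesterone, androgen and glucocorticoid receptors through which the converted steroids act were measured beside the enzymes. At the labor stage Esr1 was at 22.9 to 25.6 FPKM at E15.5 and at 24.4 to 31.9 FPKM at E18.5, with a log2 change of 0.22 ± 0.14 (SE), and Nr3c1, the glucocorticoid receptor, was at 9.58 to 11.7 FPKM and 10.7 to 13.6 FPKM, with a log2 change of 0.12 ± 0.15 (SE). Neither passed the criterion in limma. At the implantation stage Pgr, the progesterone receptor, was at 3.45, 4.34 and 6.58 FPKM at E0.5 and at 8.86, 9.52 and 1.31 FPKM at E4.5. Its lowest value was that of E4.5 replicate 3, and the log2 fold change of -0.46 ± 0.68 (SE) was -0.95 without that library, with an adjusted p of 0.101 in edgeR.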
